A study of Rattus norvegicus with 2 samples.

Results

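The genes described are 6 of the 32883 listed in both count matrices. They are *Ghrh*, *Sst*, *Trh*, *Crh* and *Gnrh1*, which encode the hypothalamic peptides that drive or restrain the anterior pituitary, and *Gal*, which encodes galanin. The genes were listed by name for their role, with earlier results of these data known, and no threshold on measured values was applied. Each was followed in neurons and in other cells of 2 single-cell libraries of the hypothalamus, with tissue that held the anteroventral periventricular nucleus and the arcuate nucleus. Both libraries came from female Sprague Dawley rats at 4 weeks of age (PND 29), with tissue of 3 rats pooled in each. SC300 rats received at PND 0.5 300 µg of the estrogen ester estradiol benzoate (EB) in a silicone capsule, and Control rats are described in the methods as given an oil-filled capsule and in the labels only as intact. The design text describes the SC300 capsules by the oil vehicle alone, and the sample title, which names EB, was followed here. With 1 library per group no variation between rats was measured, so no test was made, and all intervals cover counting error only (95%).

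Releasing peptides are made by small groups of hypothalamic neurons, carried down their axons to the median eminence and released into portal blood. Growth hormone-releasing hormone from the arcuate nucleus stimulates growth hormone secretion and somatostatin inhibits it. Thyrotropin-releasing hormone and corticotropin-releasing hormone, which come largely from the paraventricular nucleus, drive the thyroid and adrenal axes, and gonadotropin-releasing hormone drives the gonads. Galanin is made by many hypothalamic neurons, among them growth hormone-releasing hormone neurons of the rat arcuate nucleus, and acts on neurons and on the pituitary.

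The matrices held 4488 Control and 4524 SC300 barcodes, the same numbers of cells as in the design text. The unit was the UMI, a molecular tag that counts 1 captured RNA molecule, and the libraries held 52004789 and 57013099 UMIs. Barcodes below 200 detected genes were dropped, which left 4296 and 4379. A barcode was called a neuron when at least 4 of the 6 neuronal genes *Snap25*, *Syt1*, *Stmn2*, *Snhg11*, *Celf4* and *Rbfox3* were detected, which gave 380 Control neurons (8.85% of kept barcodes) and 361 SC300 neurons (8.24%). Their median depth was 28685.5 and 28871 UMIs, and the median share of mitochondrial UMIs was 11.6% and 12.9%. At least 4 markers of another cell class were also present in 45 Control and 34 SC300 neurons. There were 9 barcode sequences common to both libraries, of which 1 Control and 2 SC300 barcodes were neurons.

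Upstream sequence is shown for *Ghrh* and *Gal*, which were high in the same cells, and for *Trh*, which with *Ghrh* made up the members that differed more than 2-fold between the libraries. RefSeq promoter entries (GRCr8) were matched for 4 of the 6 genes, *Ghrh*, *Sst*, *Trh* and *Gal*. The 250 bases before the annotated start are printed 5′ to 3′ on the gene's strand, which is the minus strand in each case. Capitals mark GGTCA, a half-site of the estrogen response element, and TGACG, the core of the cAMP response element, on either strand. Binding of any protein to these letters was not tested.
*Ghrh* (chr3:166431881-166432130): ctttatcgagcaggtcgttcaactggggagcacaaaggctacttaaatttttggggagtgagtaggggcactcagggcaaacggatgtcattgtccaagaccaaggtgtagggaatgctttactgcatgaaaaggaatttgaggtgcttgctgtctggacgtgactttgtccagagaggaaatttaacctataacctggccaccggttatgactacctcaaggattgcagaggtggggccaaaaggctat
*Gal* (chr1:210084573-210084822): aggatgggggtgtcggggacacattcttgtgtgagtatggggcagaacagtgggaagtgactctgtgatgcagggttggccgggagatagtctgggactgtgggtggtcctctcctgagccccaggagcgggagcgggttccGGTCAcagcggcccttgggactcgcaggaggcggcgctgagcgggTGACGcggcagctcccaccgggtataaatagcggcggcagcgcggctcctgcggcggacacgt
*Trh* (chr4:126301763-126302012): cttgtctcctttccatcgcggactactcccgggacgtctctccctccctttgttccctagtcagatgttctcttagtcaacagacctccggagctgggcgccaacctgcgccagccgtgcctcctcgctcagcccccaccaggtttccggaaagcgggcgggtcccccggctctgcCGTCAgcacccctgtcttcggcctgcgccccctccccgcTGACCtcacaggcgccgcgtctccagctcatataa
The half-site began at base -108 of *Gal* and at base -35 of *Trh*, where it lay on the other strand. The TGACG core began at base -63 of *Gal* and, on the other strand, at base -74 of *Trh*. Neither motif was in the *Ghrh* window or in the *Sst* window, which was searched but is not printed. Only the window of the entry used for each gene was searched. Sequence outside it or at another start was not examined, so absence from a window does not mean absence from the gene's promoter. The motifs did not overlap each other. Of all 33469 promoter windows of this length, 35.4% held the half-site and 18.2% the core.

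UMIs of the releasing peptides were concentrated in few neurons. A neuron was called high for a gene when it held at least 10 UMIs of it at a level at least 10 times that in the non-neuronal barcodes of the same library. Non-neuronal barcodes had fewer than 4 neuronal genes and at least 4 markers of 1 other class (3076 Control and 3288 SC300 barcodes). High cells held between 81.1% (*Trh*, SC300) and 99.5% (*Sst*, SC300) of all neuronal UMIs of a member, *Gnrh1* aside. Other neurons with a UMI held a median of 1 to 2.5 UMIs. Both values follow in part from the rule, which uses UMIs of the same gene. Without use of the rule, the top 5 neurons of a library held from 36.8% (*Sst*, SC300, and *Gal*, Control) to 84.9% (*Ghrh*, Control) of these UMIs, *Gnrh1* aside. At least 1 member was high in 124 Control neurons (32.6%) and 122 SC300 neurons (33.8%), 2 members in 12 and 17, and 3 members in 1 and 1.

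**Figure D1:**
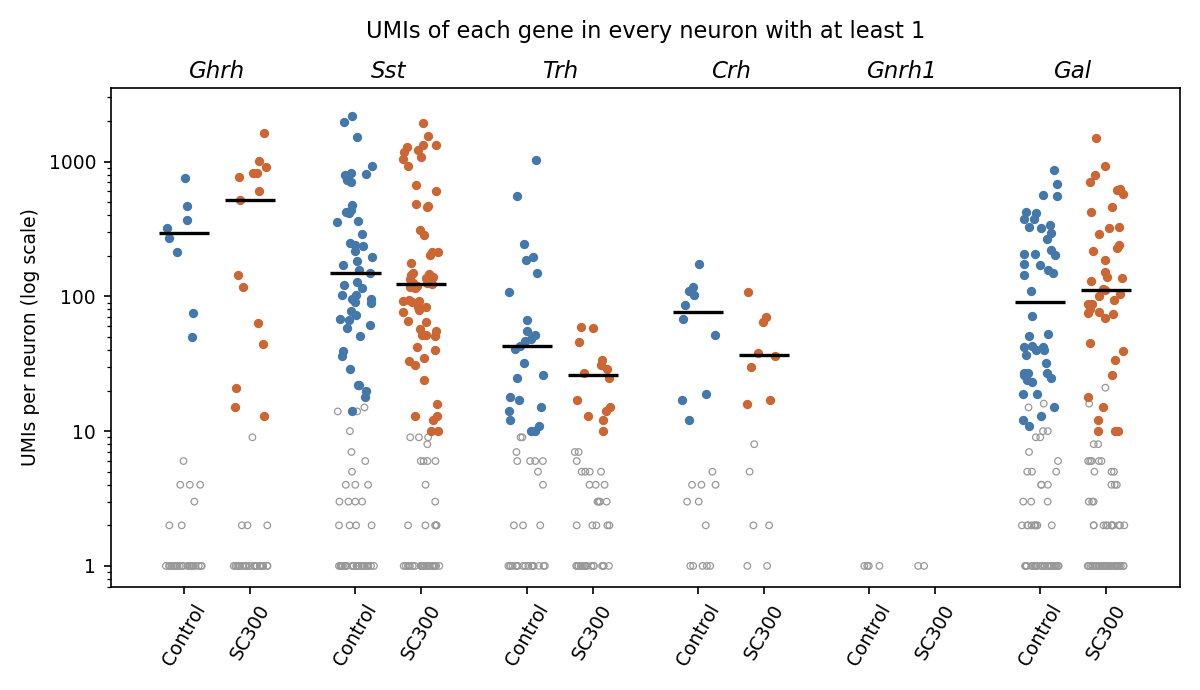
UMIs of each gene in every neuron with at least 1 UMI (vertical axis, log scale), by gene and library. Filled points are high cells, open grey points are other neurons, and black bars are medians of the high cells. *Trh* reached 1020 UMIs in a Control cell and 59 in an SC300 cell, while *Ghrh* reached 750 and 1618, and *Gnrh1* never exceeded 1.

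*Ghrh* (ENSRNOG00000007782) encodes growth hormone-releasing hormone. It was high in 8 of 380 Control neurons (2.11%, 0.913–4.11) and 15 of 361 SC300 neurons (4.16%, 2.34–6.76). The high Control cells held 50 to 750 *Ghrh* UMIs with a median of 295, and the high SC300 cells 13 to 1618 with a median of 515. The cells overlapped, but 6 of the 15 SC300 cells lay above the highest Control cell and 4 lay below the lowest. Depth also differed, with a median of 29409.5 UMIs in the high Control and 41401 UMIs in the high SC300 cells. Per 10000 UMIs of the cell, the median *Ghrh* level was 79.8 in Control and 143.1 in SC300. Exactly 4 neuronal genes were detected in 7 of the 8 Control but 5 of the 15 SC300 high cells. Outside the neurons, 3 Control and 3 SC300 barcodes also passed the limits for a high cell, all of them with 1 to 3 neuronal genes.

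*Sst* (ENSRNOG00000001837) encodes somatostatin, the inhibitor of growth hormone secretion. It was high in 49 Control neurons (12.9%, 9.69–16.7) and 61 SC300 neurons (16.9%, 13.2–21.2). The UMIs per high cell ran from 14 to 2178 with a median of 148 in Control, and from 10 to 1933 with a median of 124 in SC300. The ranges overlapped almost wholly, with 2 Control cells above the highest SC300 cell. The non-neuronal background of *Sst* in Control was 57 CPM (UMIs per 1000000 UMIs), of which 1520 of 1825 UMIs came from 1 barcode of the microglia class with 3 neuronal genes. Without that barcode it was 9.53 CPM, and in SC300 it was 6.78 CPM. The limit for a high cell was therefore stricter in Control than in SC300. In Control 4 neurons with at least 10 *Sst* UMIs were not called high, against 0 in SC300.

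*Trh* (ENSRNOG00000011824) encodes thyrotropin-releasing hormone. It was high in 25 Control neurons (6.58%, 4.3–9.56) and 14 SC300 neurons (3.88%, 2.14–6.42). The UMIs per high cell ran from 10 to 1020 with a median of 43 in Control, and from 10 to 59 with a median of 26 in SC300. Of the 25 Control cells, 8 lay above every SC300 cell. The top Control cell alone held 33.1% of the Control *Trh* UMIs of neurons, and the top 5 cells held 71.4%, against 12.3% and 47.4% in SC300. Median depth was 28595 UMIs in the high Control cells and 20194.5 UMIs in the high SC300 cells. After scaling to 10000 UMIs of the cell, medians of *Trh*-high cells were 11.7 (Control) against 10.2 (SC300), and their highest values 201.0 against 39.5. Both medians leave out neurons below 10 *Trh* UMIs, so the rule in part sets how close they lie. Any *Trh* UMI was present in 14.2% of Control and 13.9% of SC300 neurons. High cells held 97.4% and 81.1% of the neuronal *Trh* UMIs.

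*Crh* (ENSRNOG00000012703) encodes corticotropin-releasing hormone. It was high in 10 Control neurons (2.63%, 1.27–4.79) and 8 SC300 neurons (2.22%, 0.961–4.32). The UMIs per high cell ran from 12 to 175 with a median of 77 in Control, and from 16 to 107 with a median of 37 in SC300. Only 3 Control cells lay above the highest SC300 cell. In the non-neuronal barcodes *Crh* was near absent, with 0.25 CPM in Control and 0.0807 CPM in SC300.

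*Gnrh1*, which encodes gonadotropin-releasing hormone, was listed under 2 identifiers. ENSRNOG00000013441 had 22 Control and 13 SC300 UMIs over all barcodes, and ENSRNOG00000013433 had 0 in both. In neurons it had 4 UMIs in Control and 2 in SC300, each in a different cell, and no neuron was high. The share of high neurons was 0% (0–0.966) in Control and 0% (0–1.02) in SC300, and 3 counts, taken as the limit that a count of 0 allows, would be 0.789% and 0.831%. The non-neuronal barcodes held 16 and 10 *Gnrh1* UMIs, at 0.5 and 0.269 CPM. The level in neurons was 0.336 CPM (0.0916–0.861) in Control and 0.168 CPM (0.0203–0.607) in SC300. Expression above the background was therefore not detected in these neurons.

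*Gal* (ENSRNOG00000015156) was high in 46 Control neurons (12.1%, 9–15.8) and 43 SC300 neurons (11.9%, 8.76–15.7). The UMIs per high cell ran from 11 to 870 with a median of 91 in Control, and from 10 to 1505 with a median of 111 in SC300. The ranges overlapped, with 2 SC300 cells above the highest Control cell. *Gal* also passed the limits for a high cell in 18 Control and 12 SC300 barcodes of the astrocyte class, where the other members did so in at most 2 per library.

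Summed over all neurons of a library, *Ghrh* was higher in SC300 and *Trh* was lower. *Ghrh* had 215.4 CPM (207.1–223.9) in Control against 631.6 CPM (617.4–646.0) in the SC300 neurons. Its log2 ratio of SC300 over Control was 1.55 (1.49 to 1.62). *Trh* had 259.2 CPM (250.1–268.5) in Control against 40.4 CPM (36.9–44.2) in the SC300 neurons, for a log2 ratio of -2.68 (-2.82 to -2.54). *Crh* lay just inside 2-fold, with 66.2 CPM (61.7–71) and 33.4 CPM (30.2–36.9) and a log2 ratio of -0.99 (-1.16 to -0.81). *Sst* (1405.9 and 1691.9 CPM, log2 ratio 0.27) and *Gal* (708.7 and 887.9 CPM, log2 ratio 0.33) differed by less. The direction of *Sst* turned where neurons needed at least 3 (-0.02) or 5 neuronal genes (-0.08) and over all kept barcodes (-0.09), and *Crh* passed 2-fold with at least 3 neuronal genes (-1.17), over all kept barcodes (-1.25) and without the 3 top cells of each library (-1.31). For *Gnrh1*, with 4 and 2 UMIs, the interval of the log2 ratio ran from -4.47 to 1.80. Levels were compared between libraries and not between genes, whose capture can differ.

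These values were set against all genes with at least 50 UMIs in the neurons of both libraries together. Of 10914 such genes, 1.15% were past 2-fold higher in SC300 and 2.98% past 2-fold lower. Of the 5 members in that set, *Ghrh* was past 2-fold higher and *Trh* past 2-fold lower. Since the members were chosen with earlier results of these data known, this comparison is a description only. The median log2 ratio was 0.27 over the 5 members and -0.07 over all genes tested. *Ghrh* lay above 99.4% of the tested genes and *Trh* below 99.3%.

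Among neurons with at least 4 neuronal genes, the share of cells high for *Ghrh* or *Trh* was closer to equal between the libraries than the level. The log2 ratio of the share of high neurons was 0.98 for *Ghrh*, with an interval of -0.35 to 2.43, and -0.76 for *Trh*, with an interval of -1.82 to 0.24. The intervals for *Sst*, *Crh* and *Gal* also included 0. The mean number of UMIs per high cell was 314.2 in Control and 498.5 in SC300 for *Ghrh*, and 120.1 and 27.9 for *Trh*. Such means take no account of depth. Depth-scaled medians of *Trh*-high cells were 11.7 against 10.2 per 10000 UMIs. Means and medians alike cover only cells that passed the rule, which uses UMIs of the same gene. Without the 3 cells with the most UMIs of the gene in each library, the log2 ratio of level was 2.03 for *Ghrh* and -2.00 for *Trh*. Where only barcodes with at least 5 neuronal genes were kept, *Ghrh* was high in 1 of 249 Control and 10 of 239 SC300 neurons, or 0.402% and 4.18%, and its log2 ratio of level was 2.50. The interval of a level counts UMIs, most of which lay in few cells, and does not cover the variation between cells.

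**Figure D2:**
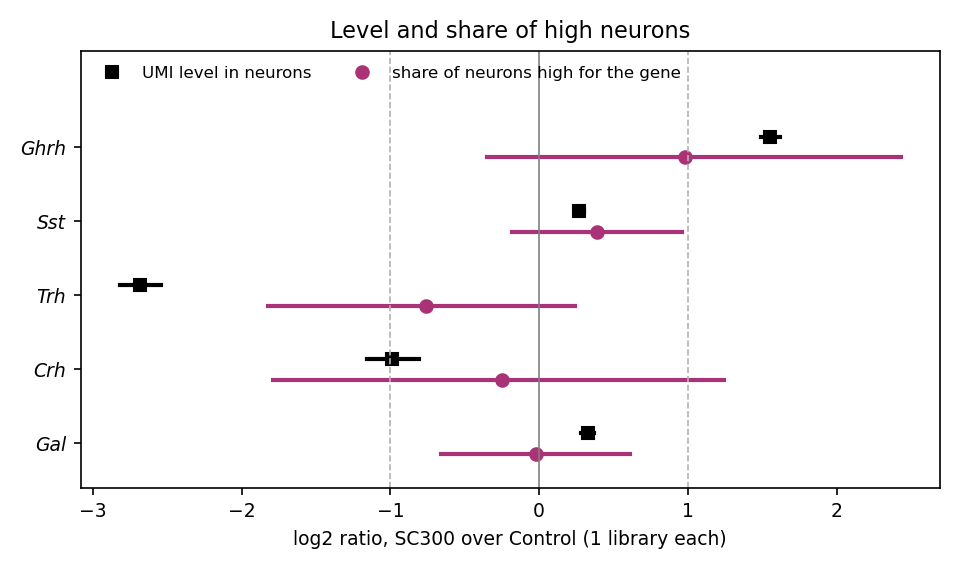
Log2 ratio of SC300 over Control (horizontal axis) for the UMI level in neurons (black squares) and for the share of neurons high for the gene (purple circles), with 95% counting intervals and dashed lines at 2-fold. Neurons drawn had at least 4 neuronal genes, and other limits are not drawn. The level of *Ghrh* (1.55) and of *Trh* (-2.68) lies past 2-fold, while every interval of a share includes 0.

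*Ghrh* and *Gal* were high in the same neurons. All 8 Control cells high for *Ghrh* were also high for *Gal* (100%, 63.1–100), as were 12 of the 15 SC300 cells (80%, 51.9–95.7). Among the other neurons, *Gal* was high in 38 of 372 Control cells (10.2%) and 31 of 346 SC300 cells (8.96%). The joint cells made up 17.4% of the *Gal*-high neurons in Control and 27.9% in SC300. *Gal* UMIs in the 8 Control cells, from the highest *Ghrh* count to the lowest, numbered 325, 686, 170, 53, 205, 219, 51 and 42. Scrublet, a caller of doublets, marked 0 of the *Ghrh*-high cells in either library. Only 4 of the 8 Control cells had more neuronal genes than markers of any other class, against all 15 SC300 cells. Of the 8 Control cells, 7 had exactly 4 neuronal genes. The SC300 cell with 1618 *Ghrh* UMIs held 1505 of *Gal*. Of the 3 SC300 cells without high *Gal*, 1 held 515 *Ghrh* and 8 *Gal* UMIs, and the others held 15 and 13 *Ghrh* UMIs and 0 of *Gal*. In the barcodes outside the neurons that passed the limits for *Ghrh*, there were 8 to 64 *Gal* UMIs beside 12 to 119 of *Ghrh*.

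**Figure D3:**
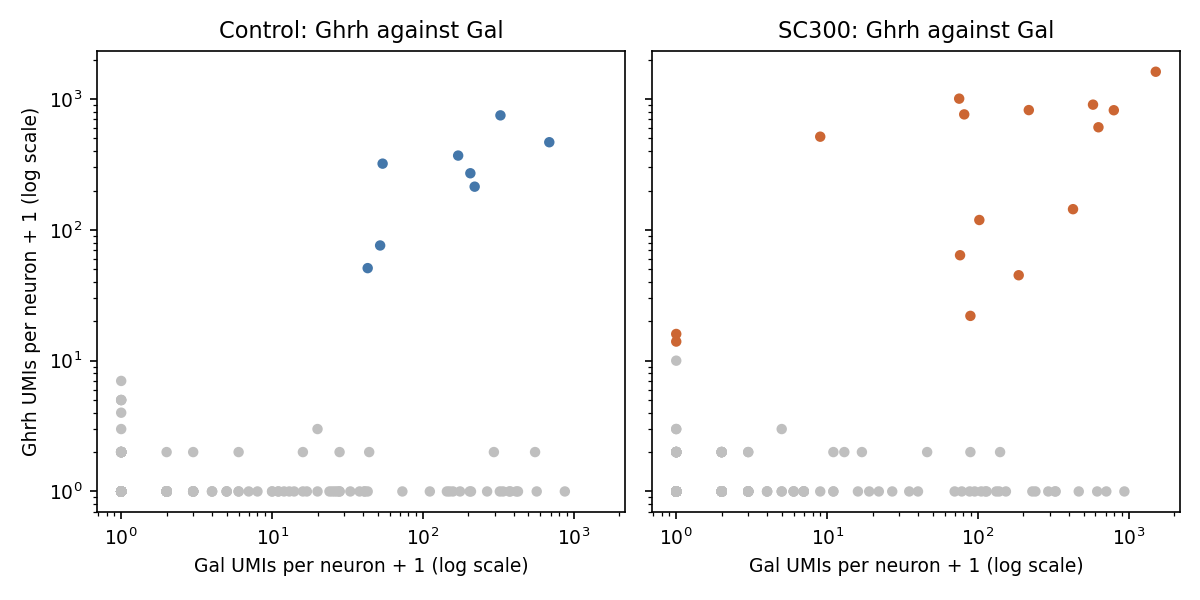
*Ghrh* UMIs against *Gal* UMIs, each plus 1 on log axes, for neurons with a UMI of any member (left Control, right SC300). Colored points are high for *Ghrh*. All 8 colored Control points and 12 of 15 colored SC300 points lie at high *Gal*, and the *Gal*-high neurons along the lower edge hold few or no *Ghrh* UMIs.

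The other pairs of the 15 were high together in at most 3 cells of a library. No cell was high for *Ghrh* and *Sst*, the opposed regulators of growth hormone, in either library, where *Sst* was high in 13.2% and 17.6% of the other neurons. A count of 0 in 8 and in 15 cells allows shares of up to 36.9% and 21.8% (Clopper-Pearson). *Sst* and *Gal* were high together in 1 of 49 Control and 2 of 61 SC300 cells high for *Sst*, against *Gal* in 13.6% and 13.7% of the other neurons. *Crh* and *Gal* were high together in 2 of 10 Control (20%, 2.52–55.6) and 3 of 8 SC300 cells (37.5%, 8.52–75.5), against *Gal* in 11.9% and 11.3% of the other neurons, and 1 of these SC300 cells was also high for *Sst*, with 1293 UMIs. *Trh* shared 1 high cell with *Ghrh*, 2 with *Sst* and 1 with *Gal* in Control, and 0, 1 and 1 in SC300. At 1 UMI of each, 17 of 39 Control (43.6%) and 29 of 47 SC300 neurons with *Ghrh* (61.7%) also held *Gal*, against 27.1% and 31% of all neurons.

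Cells high for *Ghrh* carried the genes of GABA neurons. *Gad1* and *Gad2*, which make GABA, were detected in 23 of 23 cells of both libraries together, against 64.8% and 62.7% of other neurons. *Slc32a1*, the vesicular transporter of GABA, was detected in 21 (91.3%, against 57.2%). *Slc17a6*, the vesicular glutamate transporter, was detected in 1 of 23, against 38.4% of other neurons. *Th*, the rate-limiting enzyme of dopamine synthesis, was present in 21 of 23 cells (91.3%) and in 6.55% of other neurons. Of the other dopamine genes listed, *Ddc* was detected in 12 of 23 (52.2%, against 33%), and the transporter genes *Slc18a2* and *Slc6a3* in 1 of 23 each (4.35%, against 8.22% and 1.81%). *Slc18a3*, the vesicular acetylcholine transporter, was the gene with the pattern most like *Ghrh* over 741 neurons (Pearson r 0.66, from log-normalized values), and was detected in 8 of 8 Control and 10 of 15 SC300 cells against 2.92% of other neurons. The next were *Mdfic* (r 0.61), *Gal* (0.48), *Th* (0.43) and *Nts* (0.39), which encodes neurotensin. The cells of a library share its depth and free RNA, so these correlations are a description only. For every member, the genes compared this way had a UMI in at least 0.5 of its high neurons. Their frequent detection in those cells was therefore partly set by the choice and is no separate support.

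Among other peptides, *Nts* was detected in 18 of 23 *Ghrh*-high cells (78.3%, against 4.87% of other neurons) and *Tac1*, which encodes substance P, in 20 (87%, against 27%). *Tac1* had 14 UMIs in 6 of 8 Control cells, with 0 cells at 10 or more. In SC300 it had 184 UMIs in 14 of 15 cells, with 7 cells at 10 or more. *Pnoc* was detected in 4 of 8 Control and 14 of 15 SC300 cells, together 78.3% against 34.3%. *Npy* was detected in 0 of 23. Of the transcription factors listed, *Dlx1* was detected in 22 cells (95.7%, against 34.4%), *Isl1* in 20 (87%, against 49%) and *Hmx2* in 13 (56.5%, against 15.3%). *Six3* and *Nkx2-1* were detected in 2 cells each, against 32.2% and 37% of other neurons. *Esr1*, the estrogen receptor α gene, was detected in 7 of 8 Control and 8 of 15 SC300 cells, together 65.2% against 9.47% of other neurons. *Ghr*, the growth hormone receptor gene, was detected in 7 of 8 and 7 of 15 cells, together 60.9% against 17.7%. The transcript of *Pgr*, the progesterone receptor, was found in 2 of 8 and 6 of 15 cells, together 34.8% against 3.9%.

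In *Sst*-high cells *Gad1* was detected in 80% and *Gad2* in 76.4% of 110 cells, against 63.4% and 61.6% of other neurons, and *Slc17a6* in 30% against 38.7%. Of the transcription factors, *Isl1* was detected in 78.2% against 45.3%, *Six3* in 60% against 26.5% of other neurons, *Six6* in 51.8% against 21.6%, and *Dlx1* in 11.8% against 40.6%. The pattern most like *Sst* was that of *Sstr2*, a somatostatin receptor gene (r 0.40), detected in 28 of 49 Control and 36 of 61 SC300 cells against 15.4% of other neurons. *Calcr*, the calcitonin receptor gene, followed (r 0.31), then *Calb1* (0.29), *Atp6ap1l* (0.28) and *Cbln4* (0.28).

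*Crh*-high cells stood on the glutamatergic side. *Slc17a6* was detected in 15 of 18 (83.3%, against 36.2% of other neurons) and *Gad2* in 5 of 18 (27.8%, against 64.7%). *Sim1* and *Pou3f2*, factors of paraventricular neuron development, were detected in 10 (55.6%, against 7.05%) and 9 (50%, against 12.9%). *Isl1* was detected in 0 of 18, although 51.5% of other neurons had it. The genes most like *Crh* were *Nrn1* (r 0.36), *Sim1* (0.31), *Tent5a* (0.31), *Adra1b* (0.30), an adrenergic receptor gene, and *Rgs4* (0.30).

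*Trh*-high cells were mixed. *Gad2* was detected in 66.7% and *Slc17a6* in 38.5% of 39 cells, against 63.7% and 37.3% of other neurons. *Sim1* was detected in 7 of 25 Control and 2 of 14 SC300 cells (together 23.1%, against 7.41% of other neurons). *Cartpt*, which encodes the CART peptide, was present in 51.3% against 30.1%, with at least 10 UMIs in 9 of 25 Control and 4 of 14 SC300 cells. The closest patterns were weak, with *Asb4* (r 0.25), *Cartpt* (0.24), *Rxrg* (0.22), LOC100912373 (0.22) and *Erp29* (0.21).

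*Gal*-high cells showed *Gad1* in 86.5% and *Slc17a6* in 25.8% of 89 cells, against 63% and 39% of other neurons. The patterns most like *Gal* were those of the transcription factors *Hmx2* (r 0.42; 53.9% of high cells against 11.5% of other neurons) and *Dlx1* (0.41; 73% against 31.3%), then *Stk26* (0.34), AABR07059679.2 (0.26) and *Rgs2* (0.26). *Th* was detected in 33.7% against 5.83% of other neurons. The *Gal*-high cells include the 8 Control and 12 SC300 neurons also high for *Ghrh*. *Th* was detected in 21 of 23 *Ghrh*-high cells, and its share in the *Gal*-high cells without high *Ghrh* was not counted. *Galr1*, which encodes a galanin receptor, was detected in 20 of 46 Control and 7 of 43 SC300 high cells, with 59 and 10 UMIs. Over all neurons it was detected in 15.3% (Control) and 11.1% (SC300). *Pomc* was detected in 50.6% of the *Gal*-high cells, against 39.7% (Control) and 39.3% (SC300) of all neurons. Only 1 Control and 3 SC300 *Gal*-high cells held at least 10 *Pomc* UMIs.

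**Figure D4:**
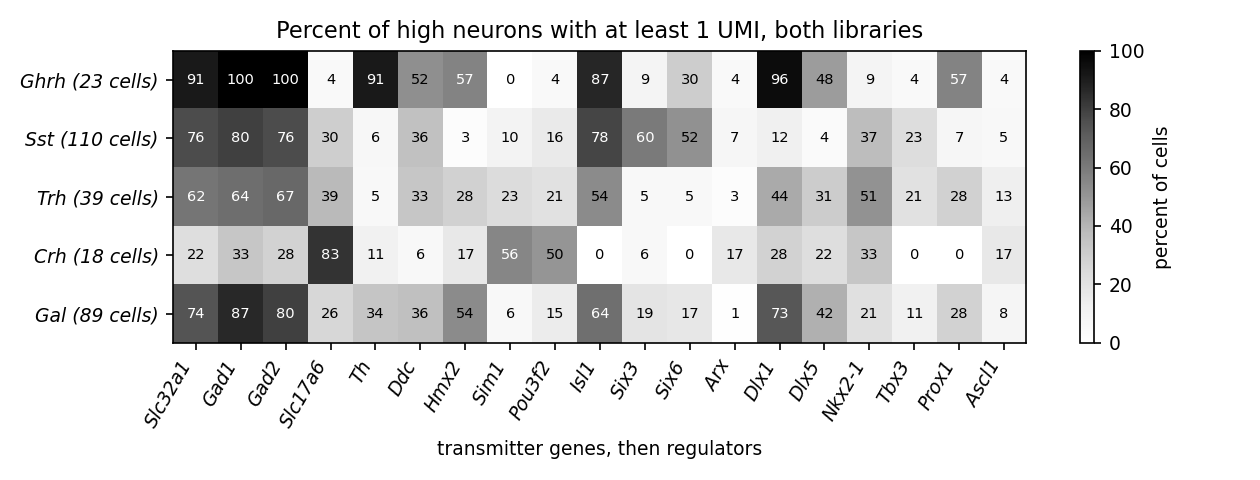
Percent of neurons high for each gene (rows, with the number of cells in both libraries together) that held at least 1 UMI of transmitter genes and then regulators (columns), for genes at 15% or more in some row. *Ghrh* cells are at 100% for *Gad1* and *Gad2*, while *Crh* cells are at 83% for *Slc17a6* and 0% for *Isl1*.

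The lists of related genes gave the following counts past 2-fold between the libraries, over all neurons, where all genes tested had 1.15% higher and 2.98% lower. Earlier results of these data were known when the lists were chosen, so the counts are a description only. Of 8 transmitter genes tested, 0 were higher in SC300 and 3 lower, namely *Th* (log2 ratio -1.36), *Ddc* (-1.51) and the dopamine transporter gene *Slc6a3* (-2.71, from 59 to 9 UMIs), and the list median was -0.34. Of 15 other peptides, *Oxt* was higher (1.50) and *Avp* (-3.89), *Tac3* (-2.11) and *Kiss1* (-1.31) were lower, with a median of 0.18. *Oxt* UMIs lay in 20.8% of Control and 60.1% of SC300 neurons and *Avp* UMIs in 39.2% and 22.7%. *Tac3* UMIs lay in 9.47% and 7.2%. *Kiss1* UMIs lay in 5.79% of Control and 9.7% of SC300 neurons, so that its share was higher in SC300 while its level was lower. The part of free RNA in these shares was not tested. None of 11 peptide processing and granule genes, among them *Pcsk1*, *Pcsk2*, *Cpe* and *Pam*, which cut and modify peptide precursors, passed 2-fold in either direction, and their log2 ratios ran from -0.24 to 0.33. None of 13 regulators passed 2-fold, with a median of -0.00.

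Of 13 receptor genes tested, 0 were past 2-fold higher and *Esr1* was lower, with 108 Control and 52 SC300 UMIs (log2 ratio -1.06, -1.56 to -0.57), and the median was 0.16. *Pgr*, below the 50 UMIs needed for this count, had 10 Control and 33 SC300 UMIs in neurons (log2 ratio 1.72, 0.67 to 2.91). *Galr1* lay just inside 2-fold, with 123 and 62 UMIs (-0.99, -1.45 to -0.54). *Trhr*, which encodes the thyrotropin-releasing hormone receptor, had 145 and 162 UMIs in neurons and at most 2 in any non-neuronal class of either library. Unlike *Trhr*, the releasing hormone receptor genes *Ghrhr*, *Gnrhr* and *Crhr1* were scarce in neurons, with 1 and 0, 1 and 2, and 2 and 4 UMIs. *Crhr2*, the other corticotropin-releasing hormone receptor gene listed, had 54 and 69 UMIs, in 7.89% of Control and 11.6% of SC300 neurons. Of the genes for extracellular handling, *Crhbp*, whose product binds corticotropin-releasing hormone, rested on 15 and 49 UMIs (1.71, 0.85 to 2.65). *Trhde*, the enzyme that degrades thyrotropin-releasing hormone, had 16.1 and 18.1 CPM in neurons. In the ependymal class it had 49.7 CPM in Control (39.2% of 120 barcodes with a UMI) and 13.9 CPM in SC300 (16% of 106), on 85 and 21 UMIs.

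Outside neurons, *Gal* was found in the astrocyte class. At least 1 *Gal* UMI was present in 227 of 1376 Control barcodes (16.5%, 14.6–18.6) and 230 of 1544 SC300 barcodes (14.9%, 13.2–16.8), at median depths of 6582 and 6705 UMIs. In the microglia class, which should lack the gene, the shares were 1.88% (0.863–3.54) and 4.22% (2.6–6.44), at 7115 and 7676.5 UMIs. Barcodes were then thinned at random to 2000 UMIs, with 112 Control and 60 SC300 shallower barcodes of the astrocyte class and 38 and 30 of the microglia class left out. The astrocyte class then had 6.33% in Control and 5.32% in SC300, and the microglia class 1.59% and 0.901%. The level was 55.7 CPM (51.6–60.2) in Control and 57.5 CPM (53.5–61.6) in SC300, and 48.9 CPM in SC300 without its top barcode of 120 UMIs. *Sst* was present in 5.23% and 5.18% of the astrocyte class, 5.85% and 3.8% of the microglia class, 4.66% and 2.35% of the endothelial class, 5% and 7.55% of the ependymal class and 5.52% and 1.39% of newly formed oligodendrocytes. Of the neuronal genes, *Snap25* was at 14.4 CPM in Control astrocyte class barcodes with *Gal* and 19.4 CPM in those without, and *Syt1* at 21.3 and 11.6 CPM. In SC300, *Snap25* was at 18.8 CPM with and 22.7 CPM without *Gal*, and *Syt1* at 25 and 10.2 CPM. The part of neuronal RNA in these barcodes was not tested.

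No barcode was put in a tanycyte class, since at least 4 of the 6 tanycyte markers were detected in only 3 Control and 4 SC300 barcodes outside the neurons, each of which had as many or more markers of another class. At least 1 was detected in 781 and 769 such barcodes, of which 296 and 326 were in the astrocyte class and 259 and 192 unassigned. In the astrocyte class, *Gal* was present in 26% and 20.9% of barcodes with a tanycyte marker, at 79.4 and 97.2 CPM, and in 13.9% and 13.3% of the rest, at 45.6 and 41 CPM. Barcodes with a marker were deeper, with medians of 9869 and 7983.5 UMIs against 6120 and 6410.5, and after thinning to 2000 UMIs the shares were 8.97% and 7.43% against 5.54% and 4.74%. *Gfap*, *Lcat* and *Aebp1*, chosen after their values were seen, were also higher in astrocyte class barcodes with *Gal*. *Gfap* was at 3497.8 CPM with and 1136.2 CPM without *Gal* in Control, and at 3011.1 and 849.7 CPM in SC300. Astrocyte markers differed in direction. *Aqp4* was higher with *Gal* than without, at 4098.6 against 2656.7 CPM (Control) and 3556.1 against 2295.6 CPM (SC300). *Agt* went the other way, at 8756.8 against 9615.6 CPM (Control) and 6505.1 against 8041.0 CPM (SC300). Barcodes with *Gal* were also deeper, with medians of 10847 against 6218 UMIs (Control) and 8532.5 against 6498 UMIs (SC300).

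*Ghrh* UMIs were also found in the astrocyte and ependymal classes. In the astrocyte class the share of barcodes with a UMI was 4.07% (3.09–5.25) in Control and 4.66% (3.67–5.84) in SC300, against 1.04% (0.34–2.42) and 0.633% (0.131–1.84) of the microglia class. In the ependymal class it was 5% and 4.72%, on 6 and 5 barcodes, and in the endothelial class 0.245% and 1.47%, on 1 and 5. No SC300 astrocyte class barcode held more than 2 *Ghrh* UMIs, and in Control 1 barcode with 3 neuronal genes held 119. Without that barcode the Control level was 4.9 CPM, and the SC300 level was 5.5 CPM. After thinning to 2000 UMIs, the astrocyte class had 1.42% and 1.08%, the ependymal class 0% and 1.9%, and the microglia class 0% and 0.45%. Barcodes with *Ghrh* per barcode with *Sst* numbered 0.778 in Control and 0.9 in SC300 in the astrocyte class, 1 and 0.625 in the ependymal class, 0.179 and 0.167 in the microglia class, 0.0526 and 0.625 in the endothelial class and 0.1 and 0.391 in the mature oligodendrocyte class. The part of free RNA in these UMIs was not tested. *Trh* was at 2.11% and 0.907% of the astrocyte class and 2.09% and 0.633% of the microglia class.

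**Figure D5:**
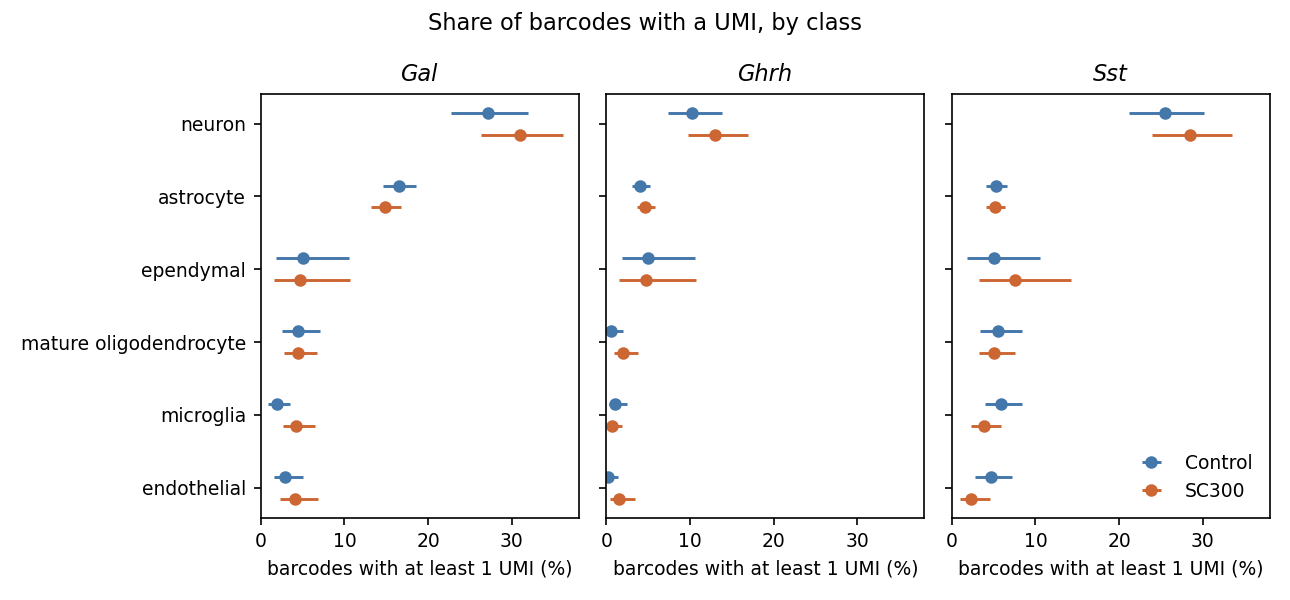
Percent of barcodes with at least 1 UMI of *Gal*, *Ghrh* and *Sst* (horizontal axes) by cell class and library, with 95% Clopper-Pearson intervals. *Gal* in the astrocyte class (16.5% and 14.9%) lies between neurons and the other classes drawn, whereas *Sst* in the astrocyte class (5.23% and 5.18%) lies within the range of the other non-neuronal classes drawn.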

How the data were processed

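Single cells of pooled hypothalamic tissue were profiled with the 10x Genomics 3′ version 3 chemistry, and both libraries were sequenced together. The authors deposited UMI counts per gene and barcode, made with Cell Ranger (3.0.1 in the file headers) against the Ensembl release 96 rat transcriptome; the genome build is not given in the sources used here. These counts were used as deposited, with no correction for free RNA. Counting tags at the 3′ end can miss a gene whose annotated end is incomplete.

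Barcodes below 200 detected genes were dropped, and the rest were classed by marker lists of up to 6 genes: neurons had at least 4 of 6 neuronal genes, and the others took the class with most markers, at least 4, with ties unassigned (840 Control and 730 SC300 barcodes). Levels are summed UMIs of a gene scaled to 1000000 UMIs of the class (CPM) with exact Poisson intervals, shares have Clopper-Pearson intervals, and ratios conditional binomial ones. A limit for a count of 0 rests on 3 counts. Genes named are the members, the listed genes and, per member, the 5 genes with the highest Pearson r among those with a UMI in at least 0.5 of its high neurons. The listed genes *Pcsk1n*, *Trhr2*, *Galr2* and *Nr3c1* were not analysed here. Doublets were called with Scrublet in scanpy 1.11.5 (84 Control and 79 SC300 barcodes) and kept, and left out as an alternative. The ratio and the rule for high cells were tried on simulated Poisson counts. In these the planted high cells had at least 10 UMIs by construction, and library totals were not clumped in few cells. The simulation therefore does not show how the intervals perform for the members. Python 3.11.15 was used. The members and lists were chosen with earlier results of these data known. Alternatives tried were other limits for high cells and neurons, other scalings, cells left out, and other backgrounds.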

Additional observations from a re-analysis of the deposited data

How the results depend on the processing

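No paired analysis was possible because each group has 1 library, and no library could be left out in turn. Limits of 1 library per group, pooled rats and small cell numbers hold for every comparison. The cause of a change under an alternative was not tested. An alternative value was taken as unchanged where it stayed within the 95% counting interval of the reported one, which held for 139 of 144 shares of high neurons, 27 of 60 log2 ratios of level, 5 of 6 co-detection shares and 29 of 48 background levels. The ratios of *Ghrh*, *Trh*, *Crh* and *Gal* kept their direction under every alternative, while that of *Sst* turned under 3. The log2 ratios outside their interval were as follows. Keeping barcodes with at least 3 neuronal genes gave 1.41 for *Ghrh*, -0.02 for *Sst*, -1.17 for *Crh*, 0.27 for *Gal*. Keeping those with at least 5 gave 2.50 for *Ghrh*, -0.08 for *Sst*, -2.08 for *Trh*, -0.73 for *Crh*. Keeping those with more neuronal genes than markers of any other class gave 2.13 for *Ghrh*, 0.50 for *Sst*, 0.82 for *Gal*. Scaling to the median ratio of genes gave 0.32 for *Sst*, 0.38 for *Gal*. Weighting every cell alike gave 1.38 for *Ghrh*, 0.24 for *Sst*, -2.02 for *Trh*. Leaving out the top cell of each library gave 1.70 for *Ghrh*, 0.32 for *Sst*, -2.30 for *Trh*, 0.26 for *Gal*. A limit of 20% mitochondrial UMIs gave 0.30 for *Sst*, -0.66 for *Crh*. Leaving out doublets gave 0.38 for *Sst*, 0.39 for *Gal*. Chosen after seeing the data, leaving out the top 3 cells gave 2.03 for *Ghrh*, 0.47 for *Sst*, -2.00 for *Trh*, -1.31 for *Crh*, 0.22 for *Gal*. Summing over all kept barcodes, also chosen then, gave 1.34 for *Ghrh*, -0.09 for *Sst*, -1.25 for *Crh*, 0.19 for *Gal*. Among shares, *Sst* in SC300 was 12.5% with at least 3 and 21.3% with at least 5 neuronal genes, *Ghrh* in Control was 0.402% with at least 5, and at 50-fold over background Control *Sst* was 8.95% and *Gal* 8.68%. With more neuronal genes than markers of any other class, *Ghrh* was high in 4 of 345 Control and 15 of 339 SC300 neurons. At 1 UMI of both genes, 43.6% of Control *Ghrh* neurons had *Gal*. Background levels (CPM) moved over all barcodes with fewer than 4 neuronal genes to 5.87 for *Ghrh* in SC300, 80.5 for *Sst* in Control, 9.62 for *Sst* in SC300, 2.81 for *Trh* in Control, 2.27 for *Trh* in SC300, 2.05 for *Crh* in Control. Thinned to 2000 UMIs they moved to 7.8 for *Ghrh* in Control, 4.72 for *Ghrh* in SC300, 36.1 for *Sst* in Control, 7.86 for *Sst* in SC300, 20.3 for *Gal* in Control, 21.4 for *Gal* in SC300. Chosen after seeing the data, leaving out the top barcode gave 2.34 for *Ghrh* in Control, 9.53 for *Sst* in Control, 4.79 for *Sst* in SC300, 20.5 for *Gal* in SC300, and leaving out astrocyte class barcodes with a tanycyte marker gave 63.6 for *Sst* in Control, 15.6 for *Gal* in Control, 14.7 for *Gal* in SC300.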
